A study of Homo sapiens with 2 samples.

Results

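The pyruvate dehydrogenase and 2-oxoglutarate dehydrogenase complexes were examined through 9 nuclear genes: OGDH, OGDHL, DLST, DLD, DHTKD1, PDHA1, PDHB, DLAT and PDHX. They were taken by gene symbol from the 58302 genes listed in each count table, and all 9 were found once. The set was chosen by function, but with the count ratios of this comparison already known, so those ratios are given as a description. The tables came from RNA-seq of A549 cells, an established line derived from a human lung adenocarcinoma, grown in F12K medium with serum. One library came from cells overexpressing PGC-1α, the coactivator encoded by PPARGC1A, and 1 library from control cells of the overexpression experiment. The labels give no vector, promoter, delivery method or time of harvest, and with 1 library per group no difference below has a replicate check. Intervals are exact, at 95%, and cover counting error only.

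Both complexes are large mitochondrial assemblies that decarboxylate a 2-oxo acid, pass the acyl group to coenzyme A and reduce NAD+. An E1 enzyme with thiamine diphosphate does the decarboxylation, an E2 enzyme carries the acyl group on a lipoyl arm, and the E3 enzyme DLD, shared by both complexes, reoxidises that arm. The pyruvate complex feeds acetyl groups into the tricarboxylic acid (TCA) cycle, and the 2-oxoglutarate complex is a step of the cycle itself. PGC-1α is known for raising genes of mitochondrial oxidation, acting through partners such as the nuclear receptor ERRα and the factor NRF1.

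All 9 ratios lay above 1 in the PGC-1α library, as did 6935 of the 14154 genes treated as measured below. The 9 ratios differed widely from gene to gene. OGDHL, PDHA1, OGDH and DLAT passed 1.5-fold with an interval that left out a ratio of 1, all with more transcript under PGC-1α. Of all measured genes, 5.3% did so. For DLAT the 1.5-fold line lay inside the interval of 1.44 to 1.61. DLST, DLD and PDHX lay between 1.22-fold and 1.45-fold, and PDHB and DHTKD1 were both at 1.05-fold. The genes that differed most encode E1 parts of both complexes, yet PDHB, which encodes an E1 part as well, had an interval that included a ratio of 1. So did DHTKD1, which encodes the E1 enzyme for another substrate, 2-oxoadipate.

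Promoter sequence is shown for the pyruvate E1 pair, which had unlike ratios, and for the other higher genes that RefSeq's promoter table holds. That table, on GRCh38.p14, held 8 of the 9 genes in 11 windows, each running from 250 bases before to 50 bases after an annotated start; OGDH had none. Capitals mark 4 motifs on either strand: AGGTCA, the half-site of ERRα and other nuclear receptors (TGACCT on the other strand), the E-box CACGTG, AAGATGGC, a YY1-type motif, and GCGCATGC, a core of NRF1 sites, which is not in the windows shown.
OGDHL (chr10:49762274-49762573, minus strand): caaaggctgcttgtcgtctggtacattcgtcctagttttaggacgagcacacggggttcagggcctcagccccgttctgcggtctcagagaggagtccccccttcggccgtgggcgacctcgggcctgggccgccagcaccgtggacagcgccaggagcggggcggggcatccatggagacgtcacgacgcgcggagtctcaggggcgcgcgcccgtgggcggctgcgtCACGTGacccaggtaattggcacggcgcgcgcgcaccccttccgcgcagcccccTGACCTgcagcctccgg
PDHA1 (chrX:19343677-19343976, plus strand): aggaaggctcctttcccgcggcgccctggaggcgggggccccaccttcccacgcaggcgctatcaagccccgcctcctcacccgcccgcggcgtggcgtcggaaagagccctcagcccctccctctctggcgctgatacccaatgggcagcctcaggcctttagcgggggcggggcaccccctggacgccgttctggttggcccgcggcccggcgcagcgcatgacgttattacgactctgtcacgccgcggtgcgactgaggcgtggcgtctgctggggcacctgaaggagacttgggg
DLAT (chr11:112025158-112025457, plus strand): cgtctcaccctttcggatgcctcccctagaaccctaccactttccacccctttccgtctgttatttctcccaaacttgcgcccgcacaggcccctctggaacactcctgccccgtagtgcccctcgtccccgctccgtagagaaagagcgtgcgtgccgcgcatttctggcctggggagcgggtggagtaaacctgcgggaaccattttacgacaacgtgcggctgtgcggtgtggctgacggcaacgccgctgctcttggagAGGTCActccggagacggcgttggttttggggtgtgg
PDHB (chr3:58433783-58434082, minus strand): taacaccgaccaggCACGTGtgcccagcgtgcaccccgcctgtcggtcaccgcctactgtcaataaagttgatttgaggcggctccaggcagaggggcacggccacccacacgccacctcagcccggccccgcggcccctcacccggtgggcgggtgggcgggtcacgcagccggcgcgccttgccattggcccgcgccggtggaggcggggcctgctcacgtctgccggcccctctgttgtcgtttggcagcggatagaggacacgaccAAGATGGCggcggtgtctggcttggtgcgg

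AGGTCA was found in the windows of OGDHL and DLAT, that is in 2 of 8 member genes, and in 16.5% of the 27305 genes of the table. OGDHL has 2 annotated starts, and the window shown is that of the later one. AGGTCA began 34 bases after that start on the reverse strand and 14 bases after the DLAT start of the promoter table on the forward strand. The DLAT gene as counted begins at 112024814, before the whole window shown. The extended half-site TNAAGGTCA, known for ERRα, which contains AGGTCA, matched none of the 8 genes and 1.17% of all genes. CACGTG was present in OGDHL and PDHB, against 8.77% of all genes, and lay 21 bases before the later of the 2 OGDHL starts and 36 bases after the earlier one. AAGATGGC was present in PDHB and PDHX, against 3.52% of all genes. The NRF1 core GCGCATGC matched DLD, 21 bases before its later start on the reverse strand, against 3.68% of all genes, and a longer NRF1 palindrome matched none of the 8, against 6.98%. The cyclic AMP element TGACGTCA matched none, against 2.25% of all genes. CCGGAAGT, an ETS and GABP motif, matched DLST, against 4.95% of all genes. The GC box GGGCGG was found in 6 of 8 member genes and in 48.3% of all genes. A match describes letters in these windows, and no binding was measured.

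The library labels fitted the introduced gene. PPARGC1A had 4654 counts in the PGC-1α library and 5 in the control, or 192 and 0.183 CPM (library-size-scaled counts, with TMM, the trimmed mean of M-values, as the scaling). Totals were 24334768 counts in the PGC-1α library and 27125084 in the control. Genes of the mitochondrial genome took 8.32% of counts in the PGC-1α library and 6.22% in the control, and scaling on nuclear genes alone gave OGDH and PDHA1 the same ratios to 2 decimals. All 5 epithelial markers were measured, at a summed 5249 CPM in the PGC-1α library and 5360 CPM in the control, a sum made up mostly of KRT8 and KRT18. Of these 5, KRT19 was called lower at -1.13 (-1.26 to -1.01) and CDH1 at -0.95 (-1.09 to -0.81) on the log2 scale, and the other 3 were not called. Of 3 genes known for high levels in A549, AKR1B10 was called lower at -0.60 (-0.62 to -0.59) and AKR1C1 at -0.72 (-0.75 to -0.69), and ALDH1A1 was not called. The part of these marker differences in the results was not tested. CDKN2A, known to be deleted in A549, was at 0 counts in both. None of the 3 alveolar, 4 immune or 3 endothelial markers reached 1 CPM. The 4 fibroblast markers, of which COL1A1 and COL3A1 passed that level, summed to 34.4 CPM in the PGC-1α library and 22.6 CPM in the control. That sum was mostly COL1A1, at 33.0 CPM in the PGC-1α library and 20.9 CPM in the control. COL1A1 was called higher at 0.66 (0.50 to 0.82) on the log2 scale. COL3A1 at -0.14, PDGFRB at -0.88 and DCN at 0.17 were not called. The part of the fibroblast markers in the results was not tested. In bulk RNA, fewer cells of a type and less RNA per cell cannot be told apart.

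A gene was treated as measured at a mean of at least 1 CPM over both libraries, which 14154 genes met. A call needed a 1.5-fold gap in TMM-scaled counts together with a counting interval that left out a ratio of 1. By this rule 4 of the 9 genes were higher and 0 lower. Over all measured genes 5.3% were higher and 3.92% lower. At 2-fold, 2 of the 9 were higher, PDHA1 and OGDHL, and 0 lower, beside 1.75% and 1.16% of all measured genes. All 9 genes also met a mean of 5 CPM, a level at which 3.44% of genes were called higher and 2.41% lower at 1.5-fold. The median log2 ratio of the 9 genes was 0.53, or 0.48 without OGDHL, and that of all measured genes was -0.01. OGDHL passed the 1 CPM filter through its level in the PGC-1α library, and the other 8 were well above it in both libraries.

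**Figure D1:**
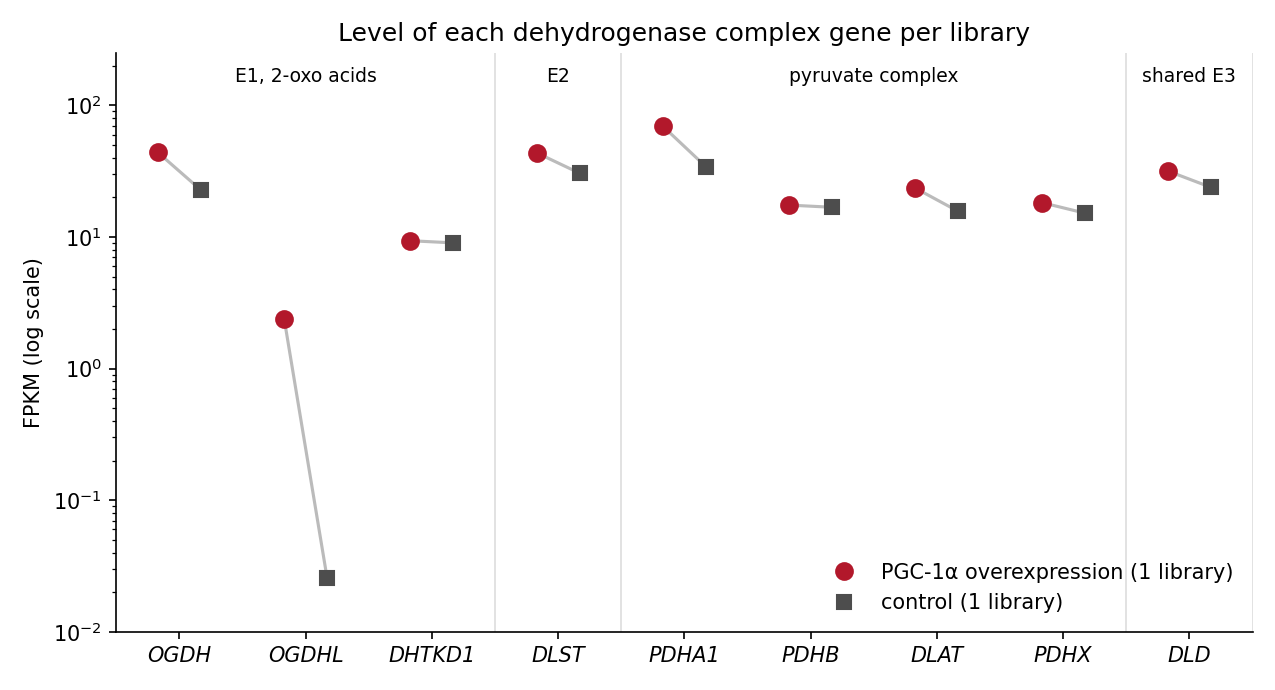
FPKM of the 9 genes on a log axis, with the PGC-1α library as circles on the left of each pair and the control library as squares on the right. OGDHL stood at 2.40 FPKM in the PGC-1α library and 0.0258 FPKM in the control, while PDHB and DHTKD1 were nearly level.

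OGDH encodes the E1 enzyme of the 2-oxoglutarate complex (ENSG00000105953, GRCh38 chromosome 7, 44606572 to 44709066). It had 5577 counts in the PGC-1α library and 3213 in the control, which is 230 and 118 CPM. Its log2 ratio was 0.97 (0.90 to 1.03), or 1.96-fold. It ranked 275 of the 14154 measured genes by ratio. No listed gene overlapped it.

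OGDHL, a paralogue of OGDH that also encodes a 2-oxoglutarate dehydrogenase E1, gave the widest gap (ENSG00000197444, chromosome 10, 49734643 to 49762379). It had 335 counts in the PGC-1α library and 4 in the control, or 13.8 and 0.147 CPM. The log2 ratio was 6.39 (5.19 to 8.44), so the counting interval ran from 36.5-fold to 348-fold. The control value was close to the 3 counts, or 0.110 CPM, used as the floor for an undetected gene. With the few control counts the size of the ratio depended on the scale: it was 4.31 on log2(FPKM + 0.1) and 1.73 on log2(FPKM + 1), scales that understate differences of low genes. OGDHL ranked 3 by ratio.

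Per gene length, OGDHL remained the minor E1 in both libraries. It made up 5.18% of the summed FPKM of OGDH and OGDHL in the PGC-1α library and 0.113% in the control. As a share of counts this was 5.67% (5.09 to 6.29, Clopper-Pearson) in the PGC-1α library and 0.124% (0.0339 to 0.318) in the control. The coding sequences of OGDHL and OGDH were 77.4% identical over 3009 aligned bases of GENCODE 29 transcripts, and the longest identical run was 43 bases. None of the 5815 distinct 50-base windows of OGDHL transcripts occurred in a transcript of another gene. The read length is not given in the sources used here.

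DHTKD1 encodes the E1 enzyme for 2-oxoadipate, an intermediate of lysine breakdown, and works with the same DLST and DLD (ENSG00000181192, chromosome 10, 12068972 to 12123225). It had 1206 counts in the PGC-1α library and 1291 in the control, or 49.8 and 47.3 CPM. Its log2 ratio was 0.07 (-0.04 to 0.19), so a difference was not detectable at this depth and one above 1.14-fold lay outside the counting interval. Set against DHTKD1 within each library, OGDH stood at 4.69 times its FPKM in the PGC-1α library and 2.52 times in the control. That ratio of ratios, which does not depend on library scaling, was 1.86 (1.70 to 2.03).

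DLST encodes the E2 succinyltransferase core of the 2-oxoglutarate complex (ENSG00000119689, chromosome 14, 74881891 to 74903745). It had 4839 counts in the PGC-1α library and 3766 in the control, or 200 and 138 CPM. Its log2 ratio was 0.53 (0.47 to 0.60), or 1.45-fold, and the interval reached just past 1.5-fold, at 1.51. Its processed pseudogene DLSTP1 had 6 counts in the PGC-1α library and 12 in the control. The FPKM of OGDH relative to DLST was 1.01 in the PGC-1α library and 0.745 in the control, a ratio of ratios of 1.35 (1.27 to 1.44).

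PDHA1 encodes the alpha subunit of pyruvate dehydrogenase E1, which carries the serines that the inhibitory kinases phosphorylate (ENSG00000131828, chromosome X, 19343893 to 19361705). It had 7604 counts in the PGC-1α library and 4167 in the control, or 314 and 153 CPM. The log2 ratio was 1.04 (0.99 to 1.09), or 2.06-fold, at rank 224. MAP3K15 on the opposite strand shares 956 exonic bases, or 21.3% of the exonic bases of PDHA1. It had 146 counts in the PGC-1α library and 118 in the control, few beside those of PDHA1. The strand setting is not given, so how reads of the shared bases were counted is not known. The FPKM of PDHA1 uses its full length of 4493 bases. The testis paralogue PDHA2 was at 0 counts in both libraries.

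PDHB encodes the beta subunit that pairs with PDHA1 in the E1 heterotetramer (ENSG00000168291, chromosome 3, 58427630 to 58433857). It had 2009 counts in the PGC-1α library and 2150 in the control, or 83.0 and 78.8 CPM. The log2 ratio was 0.07 (-0.01 to 0.16), and a difference above 1.12-fold lay outside the counting interval. Partner subunits of 1 enzyme thus had unlike ratios. PDHA1 stood at 3.97 times the FPKM of PDHB in the PGC-1α library and 2.03 times in the control, which is a 1.95-fold gap between the ratios, or 0.97 (0.86 to 1.07) on the log2 scale.

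DLAT encodes the E2 acetyltransferase that forms the core of the pyruvate complex (ENSG00000150768, chromosome 11, 112024814 to 112064390). It had 2765 counts in the PGC-1α library and 2048 in the control, or 114 and 75.1 CPM. Its log2 ratio was 0.61 (0.52 to 0.69), or 1.52-fold, with the 1.5-fold line inside its interval of 1.44 to 1.61. With 0.1 or 1 added to FPKM it was no longer called. DLAT and DLST, the E2 genes on either side of 1.5-fold, therefore cannot be separated from that line by counting error.

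PDHX encodes the protein that holds E3 in the pyruvate complex (ENSG00000110435, chromosome 11, 34915829 to 35020591). It had 1674 counts in the PGC-1α library and 1549 in the control, or 69.2 and 56.8 CPM. The log2 ratio was 0.28 (0.18 to 0.38), or 1.22-fold. APIP on the opposite strand shares 6.89% of the exonic bases of PDHX and had a log2 ratio of 0.15. APIP had 711 counts in the PGC-1α library and 721 in the control. How reads of the shared bases were counted is not known here either. The FPKM of DLAT relative to PDHX was 1.29 in the PGC-1α library and 1.03 in the control, a ratio of ratios of 1.25 (1.14 to 1.37).

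DLD encodes dihydrolipoamide dehydrogenase, the E3 of these complexes and of the branched-chain and glycine systems (ENSG00000091140, chromosome 7, 107890970 to 107931730). It had 4097 counts in the PGC-1α library and 3425 in the control, or 169 and 126 CPM. The log2 ratio was 0.43 (0.36 to 0.50), or 1.35-fold. The more abundant LAMB1, on the opposite strand, overlaps 7932 bases of the gene but only 1.32% of its exonic bases, and its log2 ratio was -0.17. Both E2 genes kept close to DLD: the ratio of ratios was 1.07 (1.01 to 1.14) for DLST and 1.13 (1.05 to 1.21) for DLAT.

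**Figure D2:**
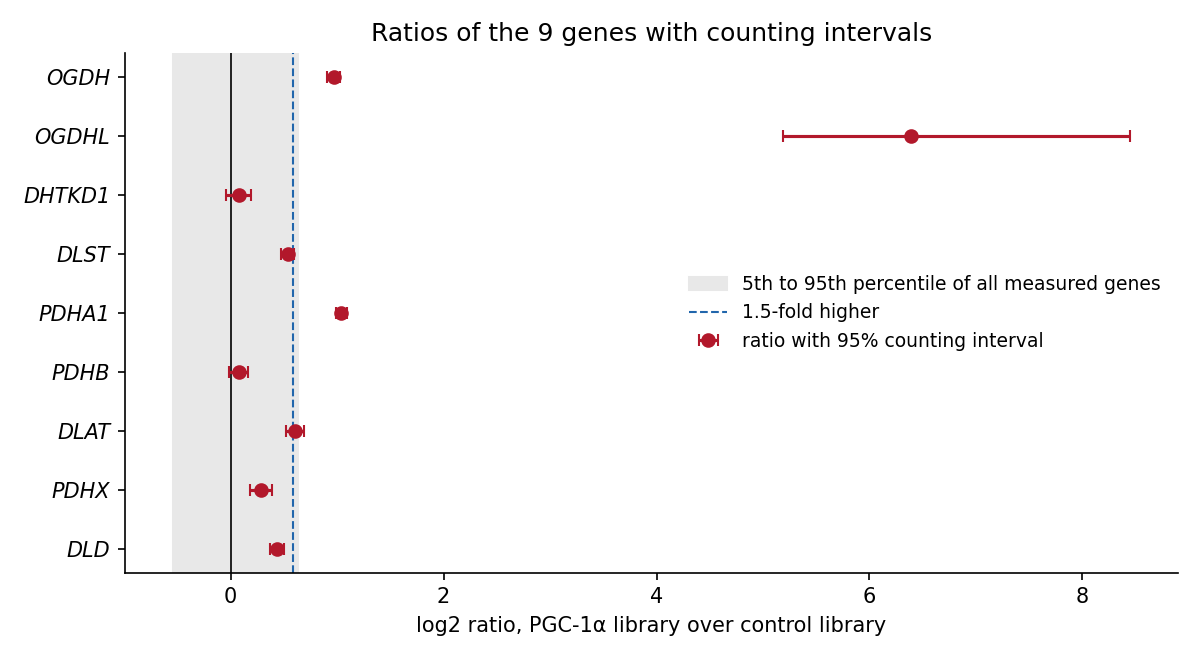
Log2 ratio of PGC-1α over control for each gene, with 95% counting intervals as bars. The grey band spans the 5th to 95th percentile of all measured genes, -0.54 to 0.63, and OGDHL, PDHA1 and OGDH lie beyond it.

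**Figure D3:**
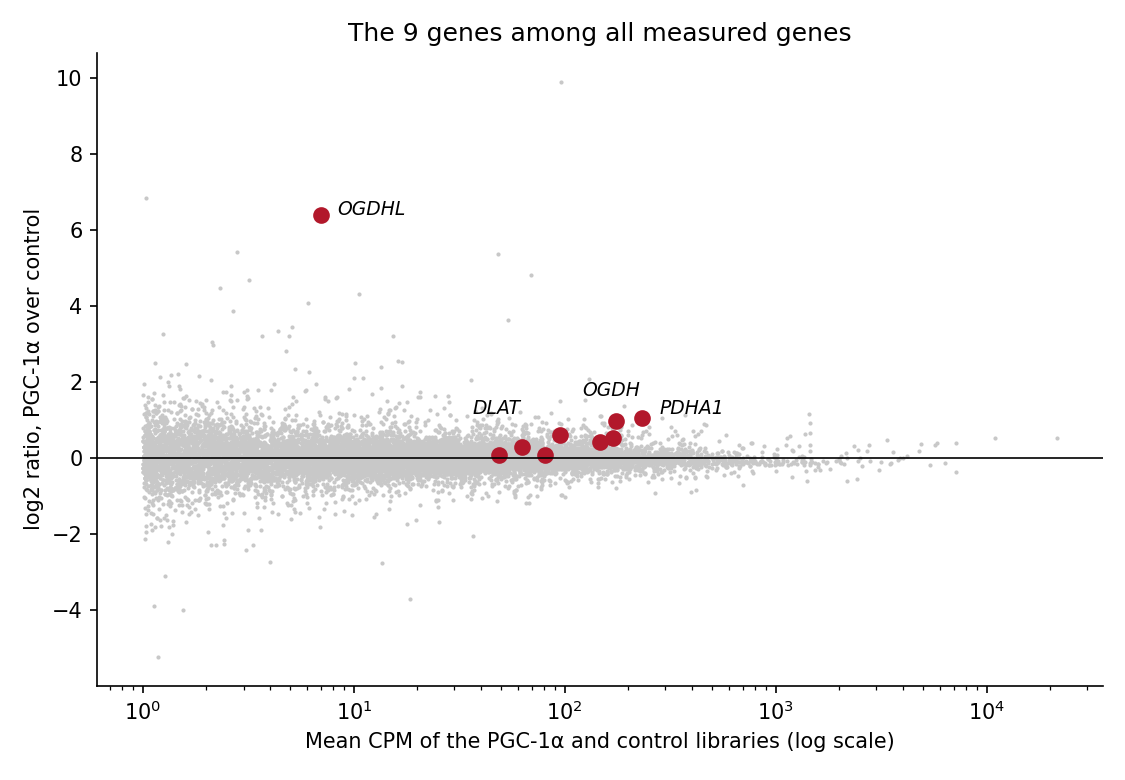
Log2 ratio of PGC-1α over control against mean CPM on a log axis, with each grey point a measured gene and red points the 9 genes. The 4 named points are those called higher, of which OGDHL had a mean of 6.99 CPM and PDHA1 233 CPM.

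The order of levels, in FPKM, differed between the libraries. The lengths behind FPKM were unions of all annotated exons, from 5 transcripts for DLAT to 16 for DLST. Which transcripts were present was not tested, so FPKM orders, shares and ratios between genes depend on those lengths. A ratio of ratios does not, because the lengths cancel. In the PGC-1α library PDHA1 was highest at 69.5, followed by OGDH at 43.9 and DLST at 43.6, whose counting intervals overlapped. In the control PDHA1 again led at 34.2, but DLST at 30.6 and DLD at 23.9 stood above OGDH at 22.8, with the intervals of DLD and OGDH overlapping. PDHB ranked 7 of the 9 in the PGC-1α library, at 17.5, next to PDHX at 18.3. In the control it ranked 5, at 16.8, and its interval overlapped that of DLAT at 15.6, which in turn overlapped that of PDHX at 15.2. DHTKD1 and OGDHL were the lowest 2 in both libraries.

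Summed over PDHA1, PDHB, DLAT and PDHX, the pyruvate complex genes had 129 FPKM in the PGC-1α library and 81.9 in the control. PDHA1 made up 54.0% of that sum in the PGC-1α library and 41.8% in the control, and PDHB 13.6% in the PGC-1α library and 20.5% in the control. For the 2-oxoglutarate complex, OGDH, OGDHL and DLST together had 90.0 FPKM in the PGC-1α library and 53.3 in the control. The summed counts gave log2 ratios of 0.68 (0.64 to 0.71) for the pyruvate genes and 0.79 (0.75 to 0.84) for the 2-oxoglutarate genes. These are transcript levels, and no protein or enzyme activity was measured.

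**Figure D4:**
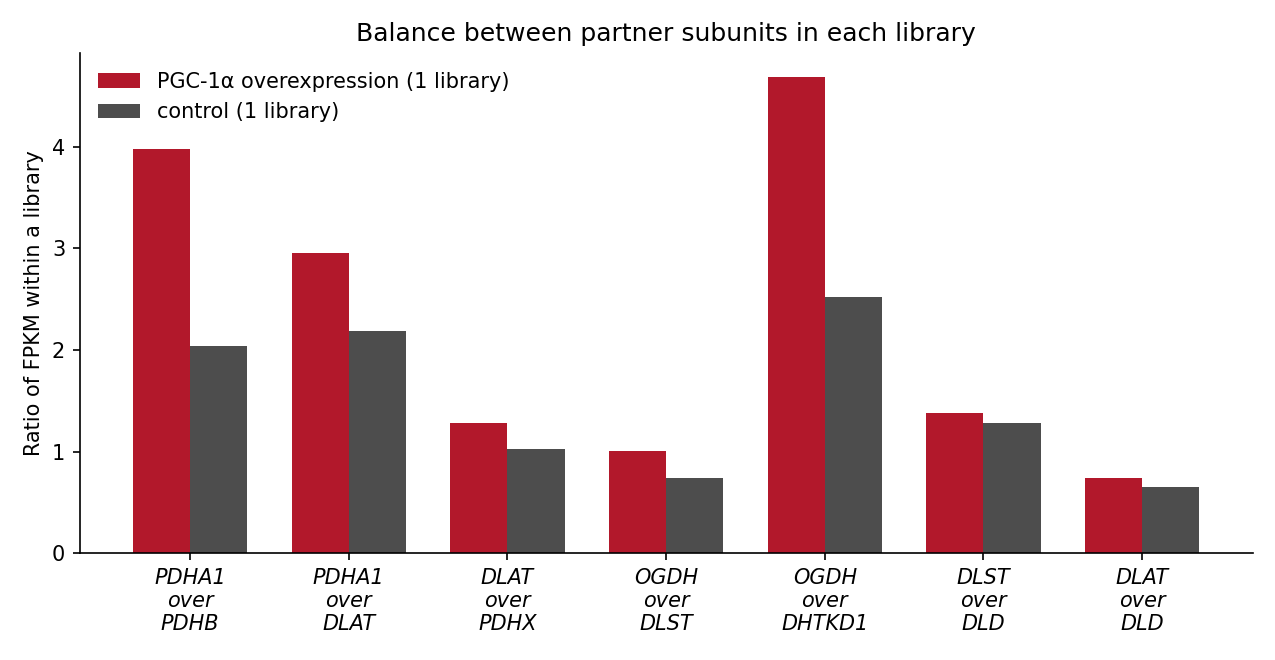
FPKM of 1 gene divided by that of its partner within each library, with the PGC-1α library as the left bar and the control as the right bar of each pair. PDHA1 over PDHB was 3.97 in the PGC-1α library and 2.03 in the control, and DLST over DLD, at 1.38 in the PGC-1α library and 1.28 in the control, differed least.

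The genes around the complexes were read from 8 lists with 46 genes, chosen with earlier results of these data known. Of the 42 measured, 9 were called higher under PGC-1α and 1 was called lower, beside 5.3% and 3.92% of all measured genes. The median log2 ratio over the 42 was 0.30. The higher genes were uneven across the lists.

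Pyruvate reaches its complex through the mitochondrial carrier, a dimer of MPC1 and MPC2. MPC1 had 203 counts in the PGC-1α library and 32 in the control, a log2 ratio of 2.82 (2.29 to 3.42). MPC2, with 1207 counts in the PGC-1α library and 961 in the control, was at 0.50 (0.38 to 0.62), under 1.5-fold. Thus 1 of 2 carrier genes was called.

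The pyruvate complex is switched off by kinases and on by phosphatases. Of 7 measured regulators, PDK1, an inhibitory kinase known as a hypoxia target, was higher, with 243 counts in the PGC-1α library and 151 in the control and a log2 ratio of 0.86 (0.56 to 1.16). None was lower. The phosphatase PDP1 was at -0.40 (-0.64 to -0.16) and the kinase PDK4, known as a PGC-1α target in muscle, was at -0.35 (-0.54 to -0.15), both under 1.5-fold.

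E1 enzymes need thiamine diphosphate. Neither of the 2 thiamine genes reported was called. The plasma membrane transporter SLC19A3 was at -0.48 (-0.75 to -0.21) and SLC19A2 at 0.33 (0.12 to 0.54).

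The lipoylation list held genes that make lipoate and attach it to E2 subunits such as DLAT and DLST. Of 6 measured, 0 were called higher and 1 was called lower. That gene was LIPT2, an octanoyl transferase, at -0.78 (-1.57 to -0.06), with 24 counts in the PGC-1α library and 47 in the control. NDUFAB1, the acyl carrier protein, was at 0.43 (0.34 to 0.52) and the ferredoxin FDX1 at 0.40 (0.28 to 0.53). Of 8 genes of the branched-chain and glycine systems, which use DLD too, 6 were measured and none was called. GLDC of the glycine system was at -0.41 (-0.56 to -0.27), the kinase BCKDK at -0.18 (-0.30 to -0.07) and DBT, the branched-chain E2, at 0.15 (-0.01 to 0.31). MRPS36, known as a subunit that links E3 to the 2-oxoglutarate complex, was at 0.39 (0.25 to 0.52).

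The TCA cycle list held enzymes on either side of the 2-oxoglutarate complex. Of 13 measured, 6 were called higher and 0 lower, and the median ratio of the 13 was 0.57 on the log2 scale. IDH3A, a subunit of the isocitrate dehydrogenase that makes 2-oxoglutarate, was at 1.52 (1.44 to 1.60), and CS, which condenses the acetyl group from the pyruvate complex, at 1.05 (1.00 to 1.10). SUCLG1, a subunit of the next enzyme, was at 1.02 (0.94 to 1.09), and SDHA, SDHB and SDHD were also called. Of 5 measured genes that supply or exchange 2-oxoglutarate by other routes, GLUD2 had 154 counts in the PGC-1α library and 96 in the control, and was called higher at 0.85 (0.48 to 1.24). GLUD2 is a near-identical retrocopy of GLUD1, which was at 0.26 (0.19 to 0.33), so its counts are uncertain. The transaminase GOT2 was at 0.39 (0.34 to 0.44) and SLC25A11, the carrier that exchanges 2-oxoglutarate for malate, at 0.28 (0.21 to 0.36).

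**Figure D5:**
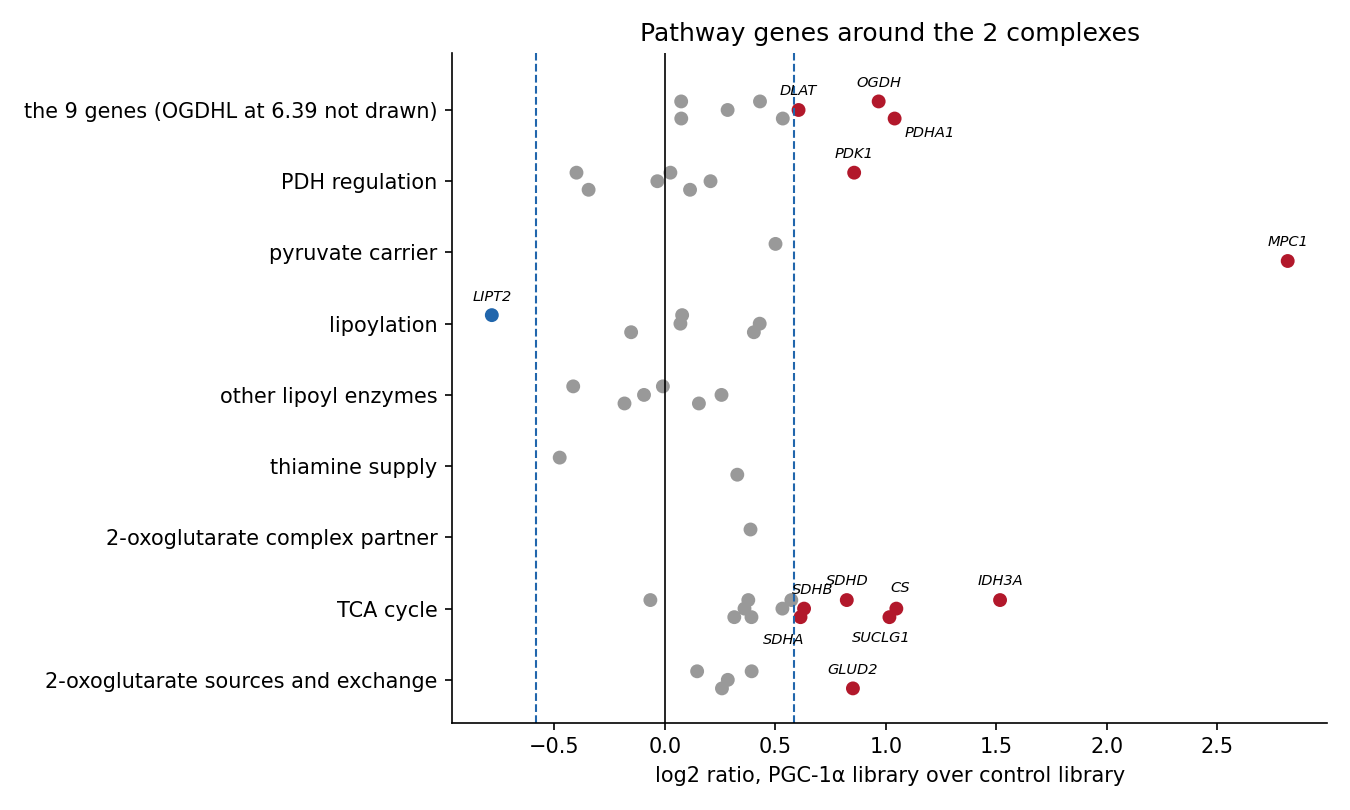
Log2 ratio of PGC-1α over control for the 9 genes and the measured genes of the 8 lists, except OGDHL. OGDHL, at 6.39, is not drawn. Each point is 1 gene, with small vertical offsets for legibility. Red points are called higher and blue lower, dashed lines mark 1.5-fold, and MPC1 at 2.82 and IDH3A at 1.52 lie farthest right among the list genes.

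The genes with the most similar ratio, among protein-coding genes with a mean CPM within 2-fold, were named for OGDHL and PDHA1 over the 2 libraries. None of the 2442 candidates came close to OGDHL. The nearest were ECM1, an extracellular matrix gene, at a log2 ratio of 4.33, the calcium channel subunit CACNB4 at 4.09 and the Wnt ligand WNT11 at 3.43. For PDHA1 the nearest of 1468 candidates were CS at 1.05, SUCLG1 at 1.02 and NDUFB9, a subunit of respiratory complex I, at 1.11.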

How the data were processed

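RNA-seq was available for 1 library of A549 cells overexpressing PGC-1α and 1 control library. The authors deposited a raw count per gene, per the file headers, and a separate FPKM value. Per the submitters' processing notes, the tools were TopHat2 2.0.9, Bowtie2 2.0.6, and Cuffdiff and Cufflinks, both 2.1.1, with no step assigned to any. The program that counted reads, the strand setting and the build: not given in the sources used here. Gene coordinates equalled GENCODE 29 (GRCh38) for 97.6% of 58039 shared identifiers and for all 9 genes, whose deposited lengths equalled its exon unions. The deposited FPKM were the counts over length and 1 size per library, 24367036 for PGC-1α and 27089164 for the control, within a relative tolerance of 1e-06, so they are not a second measurement.

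Counts were scaled with TMM (edgeR 4.0.16, R 4.3.3), with factors of 0.995 for PGC-1α and 1.01 for the control. Log2 ratios were taken after adding 0.5 to each count. Each ratio has an exact binomial (Clopper-Pearson) interval on how the 2 counts split, each ratio of ratios the exact conditional interval of its 2 by 2 table, and each FPKM a Poisson interval. No molecular identifiers are described in the sources used here. The intervals treat each counted read as independent, so they express counting error and nothing else. They can be too narrow where reads are copies of 1 molecule. The edgeR and DESeq2 1.42.0 tests need replicates, so no p-value is given. DESeq2 supplied an alternative scaling. The calculations were tested on simulated data. Python 3.11.15, scipy 1.17.1 and pandas 2.3.3 were used. Of rows that shared a symbol, the one with more counts was used.

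Named list genes were the up to 3 measured genes per list with the largest absolute ratio whose interval excluded 0, and all called genes where these were 5 or fewer. Some list genes are not reported here and were left out of the counts. DBT, GLUD1, SDHA, SDHB and SDHD were added after their values were seen. The members, the lists and the motifs were chosen with earlier results of these data known.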

Additional observations from a re-analysis of the deposited data

How the results depend on the processing

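Of 126 recomputed values, 114 kept their direction and stayed within the counting interval or within 1.5 times the count, 12 moved and 0 reversed. This tally is a weak check. Each alternative scaling shifts every ratio by 1 constant, of about 0.02 or less, so the member ratios could hardly move. By this rule 3 members called in place of 4 also counted as kept. DESeq2 size factors, library totals, upper-quartile factors and nuclear-only TMM each left OGDH, OGDHL, PDHA1 and DLAT higher. Over these scalings DLAT ran from 0.5858 to 0.6055, with the 1.5-fold line at 0.5850, so its call barely held with DESeq2 factors. No member shifted by more than about 0.02. At 2-fold, 2 members (OGDHL and PDHA1) were higher, 4 list genes were higher and 0 lower, and 248 of all measured genes were higher and 164 lower. Without a filter on low counts 1301 of all genes were higher and 885 lower. With a mean of at least 5 CPM these were 382 and 267, with 0 list genes lower. With FPKM the OGDHL ratio was 4.31 (pseudocount 0.1) or 1.73 (pseudocount 1). Both pseudocounts were larger than the OGDHL control level of 0.0258 FPKM. DLAT lost its call under both pseudocounts, on FPKM whose library sizes equal those of the DESeq2 scaling. No paired analysis was possible because each group holds 1 library, and no replicate could be left out for the same reason. Depth limited OGDHL most, with 4 control counts.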

Other observations

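Unequal ratios between partner subunits, as for PDHA1 and PDHB, were looked for in other heteromeric TCA cycle enzymes after the values were seen. IDH3A relative to IDH3B stood at 0.386 in the PGC-1α library and 0.195 in the control, in FPKM, a ratio of ratios of 1.98 (1.84 to 2.13). Relative to IDH3G it stood at 1.59 in the PGC-1α library and 0.711 in the control, a ratio of ratios of 2.23 (2.01 to 2.47). SUCLG1, the alpha subunit of succinyl-CoA synthetase, stood at 2.03 times its beta partner SUCLG2 in the PGC-1α library and 0.961 times in the control, a ratio of ratios of 2.12 (1.94 to 2.31). Relative to the other beta partner SUCLA2 it stood at 2.53 in the PGC-1α library and 1.63 in the control, a ratio of ratios of 1.56 (1.42 to 1.71). In succinate dehydrogenase the log2 ratios of the subunit genes were 0.61 (0.56 to 0.67) for the catalytic SDHA, 0.63 (0.55 to 0.71) for SDHB, 0.31 (0.25 to 0.38) for SDHC and 0.82 (0.69 to 0.96) for SDHD, so SDHA was not the highest. These pairs and subunits were picked after their values were seen, and the intervals cover counting error only.

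Genes lying near OGDHL, OGDH and PDHA1 were read as well, a choice made after values were seen. Within 250 kb of OGDHL 4 genes were measured, ERCC6, PARG, TIMM23B and AGAP6, with log2 ratios from -0.01 to 0.21 and none called. Within 250 kb of OGDH 8 genes were measured, from -0.20 to 0.21, with none called. Within 250 kb of PDHA1 3 were measured, of which ADGRG2 was lower at -0.73 (-0.99 to -0.49) and MAP3K15 at 0.48 was not called.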
